A study of Rattus norvegicus with 60 samples.

Results

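Phagocytic macrophages and activated microglia were followed through 10 genes that mark them: Cd68, Lyz2, Gpnmb, Spp1, Lgals3, Msr1, Trem2, Tyrobp, Mrc1 and Cd163. A gene was measured where the platform annotation gave a probe set that symbol alone. This held for 8 of the 10 genes, each with 1 probe set, among 14324 genes in all. Spp1 and Msr1 had no such probe set and were not analysed here. RNA came from the spinal cord of 60 female Long Evans rats, 8 to 9 weeks old, with 1 array per rat. The arms were sham-operated rats given the vehicle, 70% ethanol (S-EtOH), sham-operated rats given the glucocorticoid methylprednisolone (MP) at 30 mg/kg in the same vehicle (S-MP), rats with a contusion of the thoracic cord given the vehicle (SCI-EtOH), and contused rats given MP (SCI-MP). Each arm held 2 rats at each of 7 times from 2 to 48 h after medication, and S-EtOH and SCI-EtOH also held 2 rats at 0 h. Times are grouped into phases of 2~6 h (2, 4 and 6 h), 8 h, 12 h and 24~48 h. The arrays read a 5 mm piece of whole cord with all its cells, so that more cells of a type and more RNA per cell cannot be told apart.

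Microglia are the resident macrophages of the cord, and blood monocytes enter it after a wound and become macrophages there. Both engulf debris, deliver it to lysosomes and degrade it. Receptors such as Trem2 signal through the adaptor protein Tyrobp. Cd68 sits in the lysosome membrane, Lyz2 is a lysozyme of myeloid cells, and Gpnmb and Lgals3 (galectin-3) are induced in macrophages loaded with debris or with damaged lysosomes. Mrc1, the mannose receptor, and Cd163, the receptor for haemoglobin bound to haptoglobin, mark macrophages of the perivascular space and the meninges as well as macrophages that dampen inflammation. Glucocorticoids are known to induce Cd163 in cultured human monocytes.

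Values are log2 levels that the authors centred on each gene, so they show changes of a gene between rats and cannot rank genes by abundance. Duplicate rats correlated over all probe sets with r from 0.161 in SCI-EtOH at 6 h to 0.903 in SCI-MP at 12 h. The tissue was checked by marker lists: in SCI-EtOH against S-EtOH over 2 to 48 h, 11 of 11 neuron markers and 7 of 7 astrocyte markers were lower, while 8 of 8 markers of infiltrating monocytes and 12 of 14 markers of neutrophils were higher. Of all genes, 35.1% were higher and 27.5% lower in this comparison. The check is not particular to those lists. Called genes of endothelial cells and lymphocytes were mostly higher, such as Cdh5 at 0.74 and Cd3g at 0.36, with Slco1a4 at -0.44 and Cd5 at -0.16 lower. Called genes of oligodendrocytes were mostly lower, such as Mog at -0.45, with Mbp higher at 0.18. As the values have no zero, it cannot be said whether a marker was absent. The Lyz2 probe set may also read the near-identical rat lysozyme gene Lyc2, which has its own probe set, so the source of its signal is uncertain.

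Promoters are shown for 4 members that differed in their course, Cd68, Gpnmb and Lyz2, which were lower with MP in injured rats, and Mrc1, which was not. They are the 250 bases before the start of each gene in RefSeq on the rat assembly GRCr8, at chr10:54882442-54882691 on the minus strand for Cd68, chr4:79340878-79341127 on the plus strand for Gpnmb, chr7:54798012-54798261 on the minus strand for Lyz2 and chr17:82157475-82157724 on the plus strand for Mrc1, read 5′ to 3′ with the matches to the searched motifs in capitals.
Cd68: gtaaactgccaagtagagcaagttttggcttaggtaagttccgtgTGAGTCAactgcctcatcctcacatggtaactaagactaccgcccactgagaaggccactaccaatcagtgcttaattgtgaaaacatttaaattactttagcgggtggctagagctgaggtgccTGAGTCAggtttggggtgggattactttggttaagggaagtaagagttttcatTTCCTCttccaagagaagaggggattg
Gpnmb: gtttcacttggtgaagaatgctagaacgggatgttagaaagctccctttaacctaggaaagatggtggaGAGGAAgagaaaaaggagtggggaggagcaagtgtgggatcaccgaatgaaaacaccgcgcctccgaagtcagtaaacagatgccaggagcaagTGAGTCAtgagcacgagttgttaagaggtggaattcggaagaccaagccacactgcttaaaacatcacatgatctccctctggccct
Lyz2: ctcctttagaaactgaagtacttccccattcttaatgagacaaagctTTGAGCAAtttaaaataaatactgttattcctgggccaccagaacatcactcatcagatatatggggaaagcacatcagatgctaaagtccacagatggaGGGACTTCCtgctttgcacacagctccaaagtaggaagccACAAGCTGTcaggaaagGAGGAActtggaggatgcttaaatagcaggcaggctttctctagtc
Mrc1: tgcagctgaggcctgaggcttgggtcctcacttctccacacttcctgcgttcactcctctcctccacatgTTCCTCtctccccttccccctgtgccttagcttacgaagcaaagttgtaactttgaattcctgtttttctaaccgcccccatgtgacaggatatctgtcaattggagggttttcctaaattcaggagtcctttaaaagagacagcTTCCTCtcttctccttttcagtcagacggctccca
Motifs were searched on both strands, and 6 of the 8 measured genes had an entry (those 4, Trem2 and Cd163). The core bound by PU.1, the factor that specifies macrophages, GAGGAA, was in 5 of the 6 promoters (not in Cd163) and in 23.3% of 33469 promoters of the same length. The AP-1 site TGANTCA was in Cd68, with 2 matches, and in Gpnmb, against 6.34% of all promoters. Of the glucocorticoid response element ACANNNTGT (5.81% of all promoters), the C/EBP site TTGCNNAA (9.22%) and the NF-kappaB site GGGANTTCC (1.43%), the only matches were 1 each in Lyz2. The E-box CACGTG of the MiT/TFE family of lysosomal regulators (5.59%) had no match in the 6 promoters. No other form of this family's site was searched, so a site of the family may still be present. These matches are letters in a window, and binding was not measured.

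**Figure D1:**
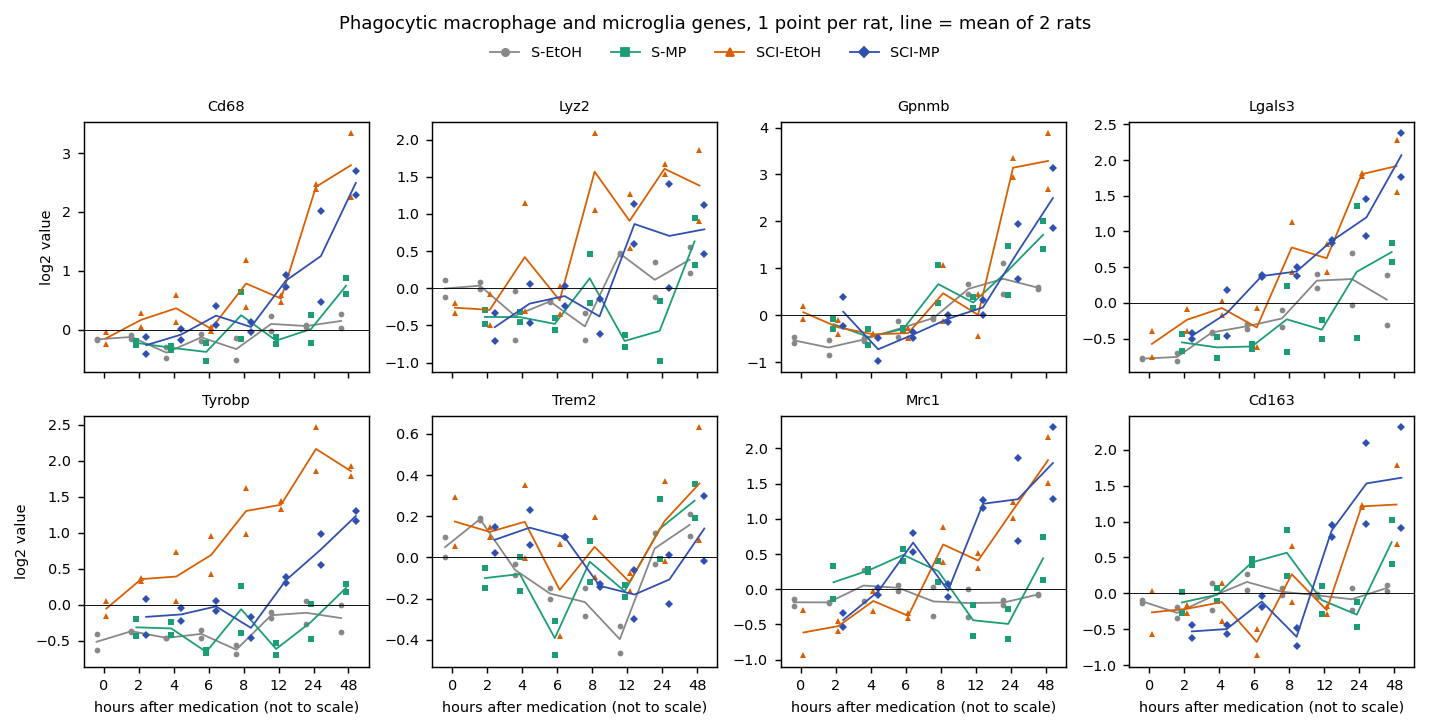
Log2 value (y axis) of each measured gene by hours after medication (x axis, not to scale), with 1 point per rat and a line through the mean of the 2 rats of an arm. At every time from 2 h Tyrobp in SCI-EtOH lies above both S-EtOH and SCI-MP, Cd68 and Gpnmb climb at 24 and 48 h, and Trem2 spans the smallest range of values.

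Over the mean of 7 times, 7 of the 8 measured genes rose after injury without MP, SCI-EtOH against S-EtOH (limma with Benjamini-Hochberg adjustment over all genes), against 35.1% of all genes higher and 27.5% lower. The median log2 change of the 8 was 0.78, against 0.036 over all genes. Tyrobp changed most, by 1.495 ± 0.085 (SE), which is 2.82-fold (adjusted p = 1.85e-16), followed by Cd68 at 1.11 ± 0.12 (adjusted p = 5.0e-10). Cd163 was the exception, at 0.23 ± 0.13 (adjusted p = 0.107), although it passed when SCI-EtOH rat 2 at 8 h (0.29, adjusted p = 0.0495) or rat 1 at 48 h (0.31, adjusted p = 0.0277) was left out. Measured against the difference at 0 h, Cd68, Tyrobp and Mrc1 passed and the other 4 did not.

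Among the lysosomal genes, Cd68 ranged in S-EtOH from -0.52 to 0.26 with a median of -0.08 over the 14 rats of 2 to 48 h. In SCI-EtOH it ranged from -0.02 to 3.34 with a median of 0.53. At each of the 7 times both injured rats lay above both sham rats, which held for 4.62% of all genes (6.88% were lower throughout). The climb came late: the 2 SCI-EtOH rats were at 0.59 and 0.13 at 4 h, at 1.18 and 0.39 at 8 h, at 2.39 and 2.47 at 24 h and at 3.34 and 2.25 at 48 h. Lyz2 ranged from -0.70 to 0.56 in S-EtOH and from -0.50 to 2.09 in SCI-EtOH, a mean change of 0.78 ± 0.15 (adjusted p = 4.08e-05). Its SCI-EtOH rats spread widely, with 1.14 and -0.30 at 4 h and 2.09 and 1.05 at 8 h, and lay above both sham rats at 4 of 7 times, below both at 2 h, and overlapped them at 2 of 7 times.

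Gpnmb and Lgals3, the genes of debris-laden macrophages, had mean changes of 0.79 ± 0.15 (adjusted p = 3.83e-05) and 0.78 ± 0.13 (adjusted p = 6.57e-06). Gpnmb stayed between -0.49 and -0.11 in SCI-EtOH at 2 to 6 h and reached 2.94 and 3.35 at 24 h and 3.88 and 2.69 at 48 h. In the sham arm its values ran from -0.53 and -0.85 at 2 h to 0.56 and 0.61 at 48 h. At 12 h the 2 SCI-EtOH rats (0.45 and -0.44) lay below the 2 S-EtOH rats (0.46 and 0.66). Lgals3 in SCI-EtOH was at 1.13 and 0.43 at 8 h, at 1.78 and 1.82 at 24 h and at 2.28 and 1.55 at 48 h, above both sham rats at 6 of the 7 times.

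Adaptor and receptor spanned unequal ranges. Tyrobp ranged from -0.69 to 0.05 in S-EtOH and from 0.05 to 2.47 in SCI-EtOH, and at all 7 times both injured rats lay above both sham rats. Its values in SCI-EtOH were 0.34 and 0.38 at 2 h, 1.62 and 0.99 at 8 h, and 1.86 and 2.47 at 24 h. Trem2 stayed between -0.48 and 0.63 over all arms of 2 to 48 h. Its mean change after injury was 0.15 ± 0.06, or 1.11-fold (adjusted p = 0.0232). This call was lost when any of 5 SCI-EtOH rats was left out (rat 1 at 4 h, rat 2 at 6 h, rat 2 at 8 h, rat 2 at 24 h or rat 1 at 48 h), with an adjusted p of up to 0.0738.

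Of the receptors of perivascular macrophages, Mrc1 lay below both sham rats at 2 and 6 h and above both from 8 h. It was at -0.60 and -0.45 in SCI-EtOH at 2 h, at 0.88 and 0.39 at 8 h, and at 1.504 and 2.161 at 48 h, against -0.08 and -0.07 in S-EtOH at 48 h. The mean change was 0.53 ± 0.11 (adjusted p = 0.000102). Cd163 was at -0.49 and -0.86 in SCI-EtOH at 6 h, below both sham rats (0.27 and 0.05), and at 1.22 and 1.20 at 24 h, above both (-0.24 and 0.08). Without the 6 h arrays, where the SCI-EtOH duplicates correlated least, its mean change was 0.41 and passed (adjusted p = 0.0147).

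By phase, 1 gene passed at 2~6 h (18.4% of all genes higher and 16.7% lower), Tyrobp at 0.89 ± 0.13 (adjusted p = 2.50e-06). At 8 h, 5 genes were higher (11.8% of all genes, and 12.6% lower): Lyz2 by 2.08 ± 0.40, Tyrobp by 1.93 ± 0.22, Cd68 by 1.11 ± 0.31, Lgals3 by 0.99 ± 0.36 and Mrc1 by 0.81 ± 0.29. Cd68, Lgals3 and Mrc1 each lost the 8 h call without S-EtOH rat 1 or SCI-EtOH rat 1 at 8 h (adjusted p up to 0.331) and with the contrasted groups fitted alone, and Lgals3 also without S-EtOH rat 2. At 12 h only Tyrobp passed, at 1.54 ± 0.22 (14.3% of all genes higher and 17.3% lower). At 24~48 h, 7 of 8 were higher (25.4% of all genes, and 22.2% lower), Gpnmb by 2.54 ± 0.28 (5.80-fold), Cd68 by 2.51 ± 0.22 (5.68-fold), Tyrobp by 2.16 ± 0.16, Lgals3 by 1.67 ± 0.25, Mrc1 by 1.61 ± 0.20, Lyz2 by 1.25 ± 0.28 and Cd163 by 1.23 ± 0.24. Trem2 was at 0.17 ± 0.11 (adjusted p = 0.214). Quantile normalization, which gives every array the same spread, left Gpnmb at 0.53 (adjusted p = 0.145), Lgals3 at 0.62 (adjusted p = 0.10) and Lyz2 at 0.36 (adjusted p = 0.236), which no longer passed, and Cd68 at 1.265, which did. The injury response grew between 2~6 h and 24~48 h for these same 7 genes (16.7% of all genes, with 14.8% moving down), from 1.09 ± 0.37 for Lyz2 (adjusted p = 0.0214) to 2.39 ± 0.37 for Gpnmb (adjusted p = 5.63e-06). Without the 24 h arrays Lyz2 lost this call (0.84, adjusted p = 0.206) and that of 24~48 h (0.998, adjusted p = 0.052). It also lost it without S-EtOH rat 1 at 24 or 48 h, SCI-EtOH rat 2 at 4 h or rat 1 at 48 h, and with quantile normalization the number was 3 instead of 7. At 0 h, directly after medication, limma called 0 of 8 genes (1 at an unadjusted p under 0.05, and 0.0279% of all genes higher and 0.014% lower), with Gpnmb at 0.60 ± 0.40 and Tyrobp at 0.46 ± 0.22.

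**Figure D2:**
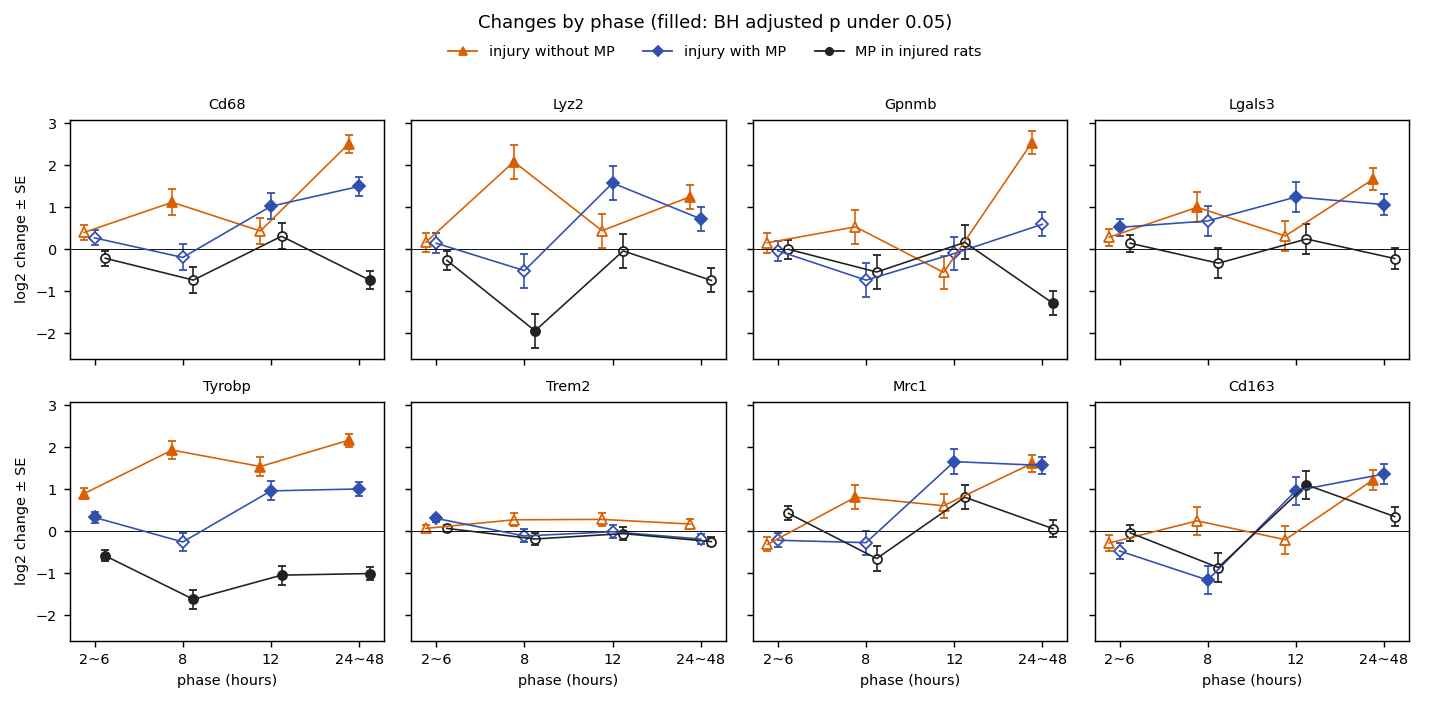
Log2 change ± SE (y axis) by phase in hours (x axis) of each gene for injury without MP (SCI-EtOH minus S-EtOH), injury with MP (SCI-MP minus S-MP) and MP in injured rats (SCI-MP minus SCI-EtOH), with filled symbols at an adjusted p under 0.05. For the injury response without MP, the symbols of Cd68, Lyz2, Lgals3, Tyrobp and Mrc1 are filled at 8 h and that of Tyrobp at 12 h. With MP, 6 are filled at 12 h, where the difference between the responses called 0 of 8 genes.

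With MP in both arms, 5 of 8 genes were higher after injury over 7 times (21.7% of all genes higher and 33.3% lower). They were Lgals3 at 0.80 ± 0.13, Cd68 at 0.66 ± 0.12, Mrc1 at 0.55 ± 0.11, Tyrobp at 0.53 ± 0.09 and Lyz2 at 0.42 ± 0.15 (adjusted p = 0.02). Gpnmb was at 0.03 ± 0.15 (adjusted p = 0.875). At 48 h it was at 1.42 and 2.00 in S-MP and at 1.86 and 3.13 in SCI-MP, which overlapped. Lyz2 lost its call without SCI-MP rat 1 at 24 h (0.32, adjusted p = 0.0642) or without S-MP rat 2 at 24 h (0.36, adjusted p = 0.0501).

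The difference between the injury responses with and without MP, which is the same contrast as the difference between the MP effects in injured and sham rats, called 0 of 8 genes at 2~6 h (0.524% of all genes higher and 5.59% lower; 1 at an unadjusted p under 0.05) and 0 of 8 at 12 h (3.16% higher and 4.54% lower; 2 at an unadjusted p under 0.05). With MP at 2~6 h, 3 genes were higher (8.23% of all genes, and 28% lower): Lgals3 by 0.52 ± 0.21, Tyrobp by 0.32 ± 0.13 and Trem2 by 0.30 ± 0.09. Without the 6 h arrays none of the 3 passed (0.28, 0.17 and 0.21, adjusted p from 0.211 to 0.557). The calls of Lgals3 (adjusted p = 0.0473) and Tyrobp (adjusted p = 0.0488) were lost in 37 and 39 of 60 fits that each left out 1 array (adjusted p up to 0.171 and 0.199), while that of Trem2 was kept. At 8 h no gene was higher (4.24% of all genes; 0 at an unadjusted p under 0.05), and Cd163 was lower by 1.17 on the log2 scale (SE 0.33, adjusted p = 0.0144; 11.7% of all genes lower), a call lost without S-MP rat 1 (-0.85, adjusted p = 0.235) or either SCI-MP rat at 8 h. At 12 h, 6 genes were higher (12.4% of all genes, and 21.7% lower), led by Mrc1 at 1.65 ± 0.29 (3.15-fold) and Lyz2 at 1.57 ± 0.40 (2.98-fold), with Lgals3 at 1.24 ± 0.36, Cd68 at 1.02 ± 0.31, and Cd163 and Tyrobp both at 0.96. Leaving out 1 rat of 12 h lost the calls of Cd163 (S-MP rat 2 or either SCI-MP rat), Cd68 (S-MP rat 2 or SCI-MP rat 1) and Lgals3 (S-MP rat 1), with an adjusted p of up to 0.176. Quantile normalization did not call Lgals3 (1.045) or Cd163 (0.69). At 24~48 h, 6 genes were higher (18.3% of all genes, and 22.6% lower), all but Gpnmb, at 0.59 ± 0.28 (adjusted p = 0.0977), and Trem2, at -0.19 ± 0.11. Lgals3, at 1.06 ± 0.25, was at 0.598 without S-MP rat 2 at 24 h (adjusted p = 0.0334), at 0.14 with quantile normalization (adjusted p = 0.755) and did not pass with the contrasted groups fitted alone (adjusted p = 0.0923). Lyz2, at 0.72 ± 0.28, did not pass at 48 h alone (0.16, adjusted p = 0.828), nor without S-MP rat 2 or SCI-MP rat 1 at 24 h, or S-MP rat 1 or SCI-MP rat 2 at 48 h (adjusted p up to 0.374). Between 2~6 h and 24~48 h the response grew for Cd163 by 1.83 ± 0.31, Mrc1 by 1.78 ± 0.26, Cd68 by 1.23 ± 0.28 and Tyrobp by 0.68 ± 0.21 (15.9% of all genes), and Trem2 dropped by 0.49 on the log2 scale (SE 0.14, adjusted p = 0.00903; 8.87% of all genes). That drop was lost without the 24 h arrays (adjusted p = 0.0814) and without the 6 h arrays (adjusted p = 0.061), and the growth of Tyrobp without S-MP rat 2 or SCI-MP rat 1 at 24 h (adjusted p up to 0.0646).

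MP in injured rats, SCI-MP against SCI-EtOH, left 4 of 8 genes lower and 0 higher over 7 times, where 31.7% of all genes were lower and 10.4% higher (0 members higher at an unadjusted p under 0.05). The count of 4 of 8 is not far from the share of all genes, and nothing is read from it about the members as a group. The SCI-EtOH rats are shared with the comparison against sham rats, with the opposite sign. Tyrobp fell by 0.92 on the log2 scale (SE 0.09), to 0.527 of the level without MP (adjusted p = 5.91e-10), Lyz2 fell by 0.61 (SE 0.15, adjusted p = 0.00161), Gpnmb fell by 0.43 (SE 0.15, adjusted p = 0.0233) and Cd68 fell by 0.37 (SE 0.12, adjusted p = 0.0117). Lgals3 was at -0.018 ± 0.135 (adjusted p = 0.929), Trem2 at -0.080 ± 0.058, Cd163 at 0.11 ± 0.13 and Mrc1 at 0.22 ± 0.11 (adjusted p = 0.106). The median over the 8 was -0.22, against -0.056 over all genes. The calls of Gpnmb and Cd68 were both lost without the 24 h arrays, at -0.20 (adjusted p = 0.295) and -0.23 (adjusted p = 0.0765), which left 2 genes lower. Adding the gap between the vehicle arms at 0 h to this contrast left 0 genes lower, with Tyrobp at -0.46 (adjusted p = 0.766). That setting cannot test the MP effect, because both arms compared were injured and no MP rats were taken at 0 h. Gpnmb also lost its call without any of 6 rats, SCI-EtOH rat 1 at 8, 12 or 48 h and SCI-MP rat 2 at 2 or 24 h or rat 1 at 48 h (adjusted p up to 0.0675).

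**Figure D3:**
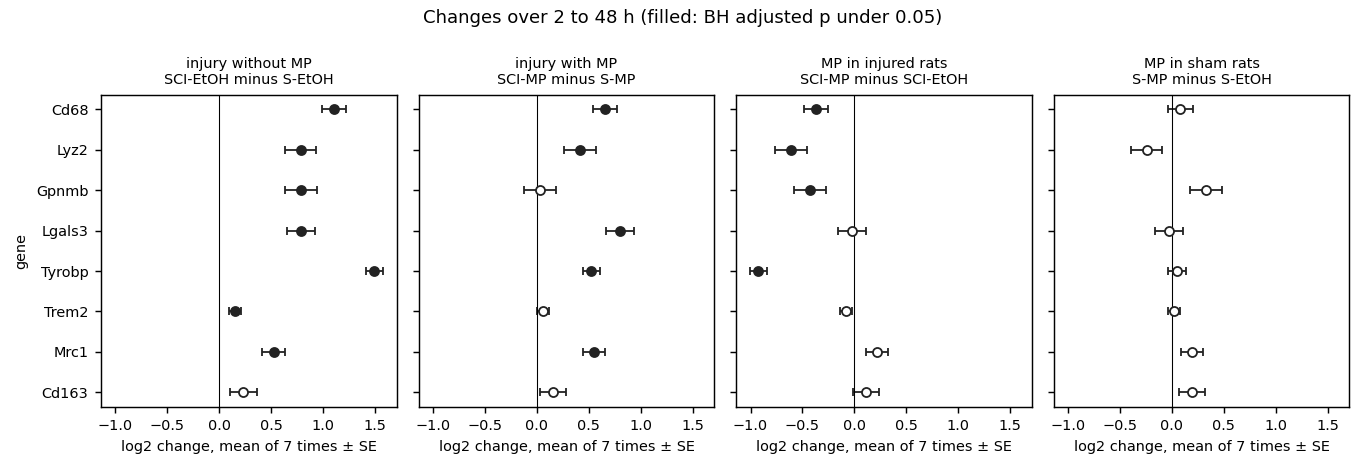
Log2 change ± SE over the mean of 7 times (x axis) of each gene (y axis) in 4 comparisons, with filled symbols at an adjusted p under 0.05. Tyrobp, Lyz2, Gpnmb and Cd68 lie below 0 with MP in injured rats, and no symbol is filled for MP in sham rats.

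Tyrobp, the adaptor, was lower in both SCI-MP rats than in both SCI-EtOH rats at all 7 times, which held for 1.45% of all genes (0.237% were higher throughout). It was at -0.42 and 0.08 in SCI-MP at 2 h against 0.34 and 0.38, at -0.47 and -0.18 at 8 h against 1.62 and 0.99, at 0.98 and 0.55 at 24 h against 1.86 and 2.47, and at 1.30 and 1.16 at 48 h against 1.93 and 1.78. It passed in each phase, at -0.59 ± 0.13 at 2~6 h (adjusted p = 0.00112; 1 of 8 genes lower against 22.9% of all genes, with 3.71% higher), -1.63 ± 0.22 at 8 h (adjusted p = 8.13e-06), -1.05 ± 0.22 at 12 h and -1.01 ± 0.16 at 24~48 h, both with adjusted p of 0.00179 or less. Of the alternative settings described below, 9 of 9 kept the call at 2~6 h and 7 of 8 at 8 h. It was kept in 7 of 8 at 12 h and in 6 of 9 at 24~48 h. Where it was lost, the adjusted p was up to 0.0529 at 8 h, 0.354 at 12 h and 0.655 at 24~48 h. The change was as small as -0.57 at 12 h and -0.40 at 24~48 h in these settings. Leaving out any 1 array kept the call in each phase. The SCI-MP values of Tyrobp were highest at 48 h, where they lay above the S-MP values of 0.18 and 0.29.

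At 8 h, 2 genes were lower with MP (4.54% of all genes, and 2.11% higher), Tyrobp and Lyz2. Lyz2 was at -0.15 and -0.61 in SCI-MP and at 2.09 and 1.05 in SCI-EtOH, a change of -1.95 ± 0.40 (adjusted p = 0.00191), which was -1.43 with an adjusted p of 0.0732 without SCI-EtOH rat 1. With the contrasted groups fitted alone, neither passed at 8 h. All 8 genes had a value below 0 at this time, with a median of -0.70, and 5 had an unadjusted p under 0.05. Markers of other cells moved in the same rats: the mean of the 14 neutrophil genes was 1.67 and 1.44 in SCI-EtOH against 0.49 and 0.42 in SCI-MP, that of the 8 monocyte genes was 1.52 and 0.66 against 0.32 and 0.43, and that of the 11 neuron genes was -1.43 and -1.42 against -0.28 and -0.51. Of these markers, 8 neutrophil genes and 3 monocyte genes were lower with MP and 5 neuron genes were higher. Their part in the 8 h values was not tested.

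At 12 h the picture was mixed. Tyrobp was lower (9.18% of all genes) and Cd163 higher (7% of all genes), by 1.10 ± 0.33 or 2.15-fold (adjusted p = 0.0221). Cd163 was at 0.79 and 0.95 in SCI-MP against -0.18 and -0.28 in SCI-EtOH, with no overlap, but the call was lost when any of these 4 rats was left out (adjusted p from 0.0501 to 0.142). Mrc1 was at 1.27 and 1.16 against 0.51 and 0.30, a change of 0.81 ± 0.29 (adjusted p = 0.0522). At 6 h Mrc1 was higher with MP (1 of 8 genes against 1.89% of all genes higher, and Tyrobp lower against 9.5%), at 0.53 and 0.79 in SCI-MP against -0.41 and -0.34, a change of 1.04 ± 0.29 (adjusted p = 0.0174). That call was lost without SCI-MP rat 2 (adjusted p = 0.157) or SCI-EtOH rat 1 at 6 h (adjusted p = 0.0578). The 6 h call of Tyrobp (-0.72, adjusted p = 0.0349) was lost without SCI-EtOH rat 1 (-0.45, adjusted p = 0.258) or either SCI-MP rat at 6 h (adjusted p up to 0.197), with quantile normalization, array medians at 0 or array weights, and with the contrasted groups fitted alone.

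At 24~48 h, 3 genes were lower with MP (10.6% of all genes, and 3.27% higher): Gpnmb by -1.29 ± 0.28 (adjusted p = 0.00194), Tyrobp, and Cd68 by -0.74 ± 0.22 (adjusted p = 0.0196). At 24 h the same 3 were lower (5.33% of all genes, and 1.02% higher): Gpnmb was at 1.95 and 0.76 in SCI-MP against 2.94 and 3.35 in SCI-EtOH and Cd68 at 2.02 and 0.48 against 2.39 and 2.47. At 48 h the arms overlapped for both genes, with Gpnmb at 1.86 and 3.13 against 3.88 and 2.69 and Cd68 at 2.28 and 2.70 against 3.34 and 2.25, and 0 of 8 genes passed (2.13% of all genes lower and 0.475% higher; 1 at an unadjusted p under 0.05). The 2 SCI-MP rats of 24 h differed, rat 1 being the higher in all 8 measured genes, with Lyz2 at 1.40 and 0.01 and Cd163 at 2.10 and 0.96. In the same rats the neuron mean was -2.32 and -0.94 and the monocyte mean 1.20 and 0.60, and their part in the values was not tested. Without rat 2, Cd68 at 24 h changed by -0.41 (adjusted p = 0.623) and Gpnmb by -1.20 (adjusted p = 0.20), and over 24~48 h Cd68 by -0.35 (adjusted p = 0.28). The 24~48 h call of Cd68 was also lost without SCI-MP rat 1 at 48 h, SCI-EtOH rat 2 at 24 h or SCI-EtOH rat 1 at 48 h. Quantile normalization, the fit of the contrasted groups alone and the 48 h arrays alone each called 0 genes in this phase. Between 2~6 h and 24~48 h the MP difference itself changed for 0 of 8 genes (0.349% of all genes lower and 0.209% higher; 3 at an unadjusted p under 0.05).

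In sham rats, MP changed 0 of 8 genes over 7 times (5.63% of all genes higher and 4.22% lower; 1 at an unadjusted p under 0.05) and 0 of 56 combinations of gene and time, 4 of which had an unadjusted p under 0.05 (0.0937% of all combinations higher and 0.112% lower). For comparison, 21 of the 56 were higher and 0 lower after injury without MP (11.2% and 11.7% of all combinations), and 2 were higher and 7 lower with MP in injured rats (1.87% and 5.23%). Gpnmb was at 0.33 ± 0.15 (adjusted p = 0.18), Cd163 and Mrc1 both at 0.19, and Lyz2 at -0.24 ± 0.15 (adjusted p = 0.351). At 48 h all 8 genes lay above 0 with MP in sham rats, with a median of 0.56, Gpnmb at 1.13 ± 0.40 having an unadjusted p of 0.00817 and an adjusted p of 1.0. At 8 h 7 of the 8 did, with a median of 0.55, and the 2 S-MP rats differed, with Lyz2 at -0.19 and 0.46 and Cd68 at -0.16 and 0.65. Other settings called up to 2 genes here: Mrc1 at 0.31 and Lyz2 at -0.34 with quantile normalization, and Gpnmb at 0.33 with array weights or with the sham arms fitted alone. The test of the difference between the MP effects in injured and sham rats called 3 genes below 0 over 7 times (20.2% of all genes, and 5.45% above 0). Tyrobp was at -0.97 (SE 0.12, adjusted p = 8.83e-07), Gpnmb at -0.75 (SE 0.21, adjusted p = 0.00941) and Cd68 at -0.45 (SE 0.17, adjusted p = 0.0435). These values are differences between MP effects and not falls in level. For Gpnmb the MP effect was -0.43 in injured rats and 0.33 in sham rats. The call of Cd68 was lost in 30 of 60 fits that each left out 1 array (adjusted p up to 0.0741), and that of Gpnmb was lost without the 24 h arrays (-0.55, adjusted p = 0.0537). By phase the difference passed for Tyrobp and Lyz2 at 8 h (-2.19 ± 0.32 and -2.59 ± 0.57; 3.51% of all genes lower and 0.935% higher) and for Gpnmb and Tyrobp at 24~48 h (-1.95 ± 0.40 and -1.16 ± 0.22; 2.47% of all genes lower and 0.586% higher). The 8 h call of Lyz2 was lost without rat 2 of S-MP (adjusted p = 0.0553) or of SCI-MP (adjusted p = 0.0507). For Lyz2 over 7 times it was -0.37 ± 0.22 (adjusted p = 0.209).

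The members resembled each other over the 30 means of arm and time, with Pearson's r between 0.565 and 0.927 for the 21 pairs without Trem2 and between 0.151 and 0.436 for the 7 pairs with it. These means share arms and times, so r is a description only. Cd68 and Lgals3 were the closest pair (0.927), then Cd68 and Gpnmb (0.888), and Cd163 was closest to Mrc1 (0.873). Among all 14324 genes, the 3 most like Tyrobp were Nrros (0.965), Itgb2 (0.963), an integrin chain of leukocytes, and Ninj1 (0.957). Those most like Cd68 were Dse (0.975), Dok1 (0.966) and Ada (0.965), and those most like Gpnmb were Mcm7 (0.947) and Mcm6 (0.945), subunits of the replication helicase, and Apobec1 (0.933). Lgals3 was most like Plp2 (0.964), S100a11 (0.958) and Emp3 (0.951), Lyz2 like the receptor Clec7a (0.916), Ninj1 (0.908) and Tbxas1 (0.904), and Mrc1 like Dab2 (0.905), Card6 (0.904) and Clec4a3 (0.897). The nearest to Cd163 were Emg1 (0.897), Srpx (0.884) and Ssr2 (0.883). For Trem2 even the nearest gene, Scpep1, reached only 0.779, followed by Tgfbr1 (0.770) and Slc16a4 (0.765).

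Signalling partners of Trem2 and Tyrobp were mostly higher after injury and lower with MP. Counts of the lists stand beside 35.1% of all genes higher and 27.5% lower after injury, and 31.7% lower and 10.4% higher with MP in injured rats, as given above. Of 14 measured, 11 were higher and 3 lower in SCI-EtOH than in S-EtOH over 7 times, with a median of 0.55, and 11 were lower and 0 higher with MP in injured rats, with a median of -0.34. The amplifying receptor Trem1 was higher by 1.795 ± 0.112, the beta-glucan receptor Clec7a by 1.27 ± 0.09, the inhibitory receptor Cd300a by 0.85 ± 0.09 and the lipid phosphatase Inpp5d by 0.81 ± 0.07. With MP in injured rats these 4 were at -0.57, -0.72, -0.43 and -0.50, and each passed. Fc and complement receptors counted 8 of 9 higher after injury (median 0.84), among them the integrin chains Itgb2 at 1.63 ± 0.10 and Itgam at 1.055 ± 0.099 and the Fc receptors Fcgr2b at 0.94 ± 0.11 and Fcer1g at 0.88 ± 0.09. With MP in injured rats 5 of 9 were lower, Itgb2 at -0.78, Fcer1g at -0.36 and Itgam at -0.34 among them, while Fcgr2b was at 0.16 (adjusted p = 0.239).

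Of 17 genes of lipid-associated or disease-associated microglia, 11 were higher and 3 lower after injury (median 0.36). The lipid droplet protein Plin2 was higher by 1.82 ± 0.12, the lysosomal tetraspanin Cd63 by 1.01 ± 0.07, Cd52 by 0.95 ± 0.09 and the growth factor Csf1 by 0.82 ± 0.07. With MP in injured rats 8 of the 17 were lower and 2 higher, with Plin2 at -0.66. Scavenger and efferocytosis genes were split, 7 higher and 6 lower of 15 (median 0.08), with the receptor for oxidized lipoprotein Olr1 at 1.18 ± 0.10, Cd36 at 0.97 ± 0.11, the bridging ligand Gas6 at -0.69 ± 0.05 and the cholesterol exporter Abca1 at 0.56 ± 0.07, and with MP in injured rats 6 of 15 were lower, Gas6 and Abca1 included, and 1 higher. Set against the 31.7% of all genes lower with MP, these counts of 8 of 17 and 6 of 15, and those of 5 of 10 and 4 of 9 for the next lists, are not far from all genes, and nothing is read from them about the lists. Genes of haem handling counted 7 of 10 higher and 2 lower, led by haem oxygenase Hmox1 at 2.16 ± 0.14 and the iron exporter Slc40a1 at 0.81 ± 0.09. With MP in injured rats 5 of the 10 were lower and 1 higher, with biliverdin reductase Blvra at -0.39 and Hmox1 at -0.25 (adjusted p = 0.155).

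Genes of border-associated macrophages, the cells that Mrc1 and Cd163 mark in the healthy cord, counted 7 of 9 higher and 0 lower after injury (median 0.40), with Pf4 at 1.92 ± 0.15, F13a1 at 1.17 ± 0.16, Ccl24 at 0.71 ± 0.13 and the hyaluronan receptor Lyve1 at 0.56 ± 0.11. Pf4 and F13a1 are also platelet genes. With MP in injured rats Lyve1 was higher, at 0.57, and 4 of the 9 were lower, among them Pf4 at -0.64.

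Homeostatic microglia genes moved against the members late. Over 7 times 2 of 10 were higher, Selplg at 0.54 ± 0.07 and Olfml3 at 0.40 ± 0.09, and 1 was lower, Slc2a5 at -0.26 ± 0.07. Between 2~6 h and 24~48 h the injury response of 7 of the 10 fell without MP, with a median of -0.80 (14.8% of all genes fell and 16.7% grew). The response of 9 of the 10 fell with MP, with a median of -0.87 (8.87% of all genes fell and 15.9% grew). The mean level of the list at 24~48 h lay between -0.42 and -0.16 in the 4 SCI-EtOH rats, between -0.65 and -0.04 in the 4 SCI-MP rats and between 0.10 and 0.50 in the 4 S-EtOH rats.

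Infiltrating monocyte markers were higher after injury in 8 of 8 (median 0.93), among them Cd14 at 1.57 ± 0.14, Fn1 at 1.04 ± 0.11, Cd44 at 0.98 ± 0.10 and Plac8 at 0.94 ± 0.09. Ccr2 was at 0.54 ± 0.10 and Ly6c at 0.69 ± 0.16. In SCI-MP against S-MP, 7 of 8 were higher (21.7% of all genes, and 33.3% lower), all but Ly6c at 0.26 (adjusted p = 0.179). Lower in SCI-MP than in SCI-EtOH were Ccr2 (-0.33), Ly6c (-0.46) and S100a4 (-0.44), while the other markers did not pass. That count is not far from the 31.7% of all genes lower with MP (10.4% higher), and nothing is read from it about the list. Neutrophil markers were higher in 12 of 14, led by Il1r2 at 2.49 ± 0.18, Cxcr2 at 2.22 ± 0.145 and S100a9 at 1.95 ± 0.11, and 9 of 14 were lower with MP in injured rats, the collagenase Mmp8 by -0.88. The mean level of the monocyte list at 24~48 h lay between 1.20 and 1.47 in the 4 SCI-EtOH rats, between 0.60 and 1.22 in the 4 SCI-MP rats and between -0.30 and -0.01 in the 4 S-EtOH rats. Red cell and platelet markers were higher in 5 of 5 after injury, with a median of 1.23, led by Alas2, of haem synthesis, at 2.42 ± 0.22 and beta-globin Hbb at 1.47 ± 0.19. Several members and list genes are made by monocytes, neutrophils and microglia alike, and the part of each cell type in the members' values was not tested.

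**Figure D4:**
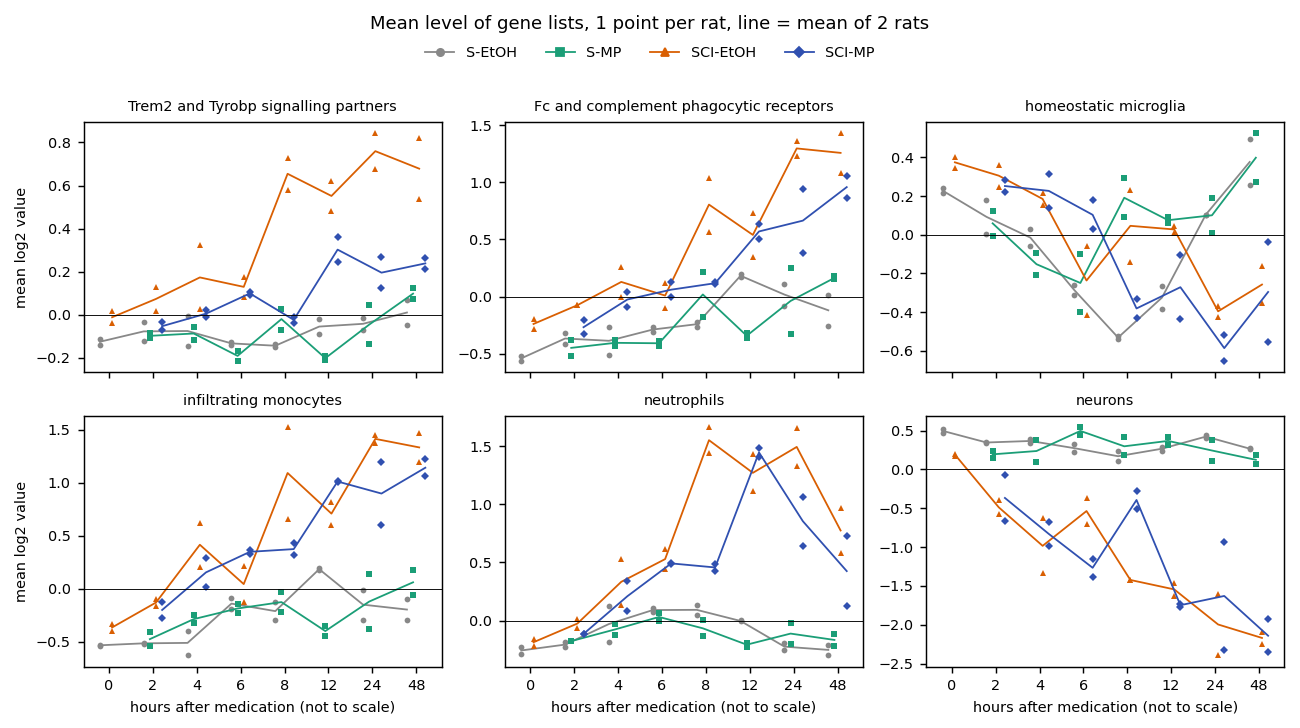
Mean log2 value (y axis) of 6 gene lists by hours after medication (x axis, not to scale), with 1 point per rat and a line through the mean of the 2 rats of an arm. Lists of phagocytic receptors and infiltrating cells lie higher in injured rats, homeostatic microglia genes lie lower in injured rats at 24 and 48 h, and at 8 h the neutrophil and neuron lists separate SCI-MP from SCI-EtOH.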

How the data were processed

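RNA of 60 rats was read on Affymetrix Rat Gene ST arrays of 27342 probe sets. The authors deposited log2 values, made in GeneSpring GX by RMA with normalization of each chip and each gene, that centre near 0 (array medians from -0.031 to 0.113). The reference of that centring is unknown, so no background level or dim-probe filter could be set. The number of arrays limits the precision. The annotation gave 15097 probe sets 1 symbol, 323 several and 11922 none; symbols were updated by gene ID (15067 matched), and probe sets of a gene were averaged.

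A mean for every arm and time was fitted over all arrays by limma 3.58.1 (R 4.3.3), with Benjamini-Hochberg adjustment per contrast over 14324 genes at 0.05. It stood in for the analysis of variance and Tukey test of the methods, run as an alternative, since 2 rats per group leave that test few degrees of freedom. P-values measure the spread between rats, with 1 spread per gene shared by all 30 groups of arm and time. Those of injured arms therefore rest in part on the spread of sham rats. Array weights, lower where duplicates spread more, ran from 1.416 to 2.702 in S-EtOH and from 0.624 to 1.722 in S-MP. They ran from 0.149 to 1.286 in SCI-EtOH and from 0.456 to 1.174 in SCI-MP. Phases follow the study.

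Named were all members, at least 2 of the 4 called genes with the largest injury change without MP in each list described, and the 3 genes most like each member. Members and lists were chosen with earlier results of these data known. Alternatives were another normalization, centring, variance, weights, block, adjustment, filter, baseline and probe set choice, left-out arrays and times, and, chosen after seeing the data, phases without 6 h or 24 h arrays. Promoters came from RefSeq on GRCr8.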

Additional observations from a re-analysis of the deposited data

Results flagged for a closer look

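The effect of MP differed between injured and sham rats, by the test of the difference in limma, for 3 members over 7 times: Tyrobp at -0.97 (adjusted p = 8.83e-07), Gpnmb at -0.75 (adjusted p = 0.00941) and Cd68 at -0.45 (adjusted p = 0.0435). Of all genes, 20.2% were lower and 5.45% higher by this test. As given above, the call of Cd68 depended on which array was left out, and that of Gpnmb on the 24 h arrays. Tyrobp was lower with MP at 7 of 7 times in injured rats while in sham rats it was lower at 2 and higher at 3 of 7 times, counting times without overlap.

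The injury response without MP differed between 24~48 h and 2~6 h for 7 members: Gpnmb at 2.39, Cd68 at 2.11, Mrc1 at 1.93, Cd163 at 1.51, Lgals3 at 1.39, Tyrobp at 1.27 and Lyz2 at 1.09 (adjusted p from 6.94e-07 to 0.0214). With MP it differed for 5: Cd163 at 1.83, Mrc1 at 1.78, Cd68 at 1.23, Tyrobp at 0.68 and Trem2 at -0.49 (adjusted p from 1.1e-05 to 0.0132). Of all genes, 16.7% grew and 14.8% fell without MP, and 15.9% grew and 8.87% fell with MP. The drop of Trem2 was lost without the 6 h or the 24 h arrays, as given above. With 2 rats per group and time, a single rat far from its group could not be told.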

How the results depend on the processing

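Over 7 times, 7 genes higher after injury became 3 when measured against the difference between the vehicle arms at 0 h. When that difference was added to the contrast of MP in injured rats, the 4 lower became 0. The value of Gpnmb then turned to 0.17, Lgals3 to 0.19, Trem2 to 0.044, Cd163 to -0.040 and Mrc1 to -0.21. Both arms of that contrast were injured and no MP rats were taken at 0 h, so these values do not test the MP effect. Quantile normalization gave 2 lower with MP, 1 higher and 1 lower in sham rats, 1 lower for the difference between injured and sham rats, 3 and 2 growing between 2~6 h and 24~48 h without and with MP, 1 higher with MP at 2~6 h, 1 lower at 8 h, 0 and 0 at 12 h and 0 at 24~48 h. Over single times it gave 1 lower after injury, 1 and 1 higher and lower with MP, and 4 and 1 in sham rats; Lgals3 with MP was at 0.063 and the Mrc1 difference at -0.082. Fitting the contrasted groups alone gave 2 lower with MP, 1 higher in sham rats, 1 higher with MP at 2~6 h, 0 lower at 8 h, 2 higher at 12 h, 0 lower at 24~48 h, 1 higher at 0 h, and over single times 1 lower with MP and 0 higher and 1 lower in sham rats. Array medians at 0 gave 1 higher with MP at 2~6 h and 2 at 12 h, with Lgals3 at 0.021. Array weights gave 1 higher in sham rats, 0 higher with MP at 12 h and 0 over single times, and 1 and 1 in sham rats over single times. Joint adjustment over all contrasts gave 1 and 1 over single times in sham rats, and the moderated F with Tukey's range also 1 and 1. Over 56 combinations of gene and time, the methods' analysis of variance with Tukey's test called 3 higher after injury (21 in limma), 1 higher and 1 lower with MP (2 and 7) and 1 lower in sham rats (0).

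Without the 24 h arrays 2 genes were lower with MP and 1 for the difference between injured and sham rats, Lgals3 with MP was at 0.079 and the Mrc1 difference at -0.049. Without the 8 h or the 48 h arrays 1 gene, Mrc1, was higher with MP. Without 8 h, Lgals3 with MP was at 0.035, the differences of Lyz2 and Cd163 at 0.0038 and 0.14, and Cd68, Trem2 and Tyrobp in sham rats at -0.00042, -0.013 and -0.040. Without 48 h these 3 were at -0.0041, -1.8e-05 and -0.016. Without 12 h, Cd163 with MP was at -0.051, Lgals3 and Trem2 in sham rats at 0.078 and -0.019, and the differences of Lgals3 and Mrc1 at -0.14 and -0.15. Without 6 h, Lgals3 in sham rats was at 0.010 and the same 2 differences at -0.15 and -0.068. Lgals3 with MP was at 0.017 without 2 h and its difference at -0.0071 without 4 h. None of the values that turned had passed, apart from Gpnmb. With 24~48 h as 48 h alone, 0 genes were lower with MP and Trem2 no longer dropped with MP (0), as without 6 h (0).

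Leaving out each array in turn gave 0 to 2 genes higher with MP at 12 h, 0 to 1 at 2~6 h, over 7 times and at 24~48 h, 1 to 2 lower at 8 h, 2 to 5 lower at 24~48 h and 1 to 4 higher over single times. Values that turned ranged, for the difference, from -0.061 to 0.11 (Mrc1), -0.12 to 0.15 (Lgals3) and -0.18 to 0.023 (Cd163), in sham rats from -0.16 to 0.10 (Lgals3), -0.00049 to 0.092 (Tyrobp) and -0.0039 to 0.037 (Trem2), and with MP from -0.070 to 0.033 (Lgals3). Except where a setting leaves arrays out, the cause of these changes was not tested. With duplicate number as a replicate block, 7 genes were higher after injury and 4 lower with MP over 7 times. The block changed 2 calls of members over all contrasts: Tyrobp with MP at 2~6 h was lost (adjusted p = 0.0525, against 0.0488) and Lyz2 without MP at 48 h was gained (adjusted p = 0.0493, against 0.052); duplicate numbers did not pair rats (median correlation of deviations 0.011, above 0.1 in 109 of 435 pairs of groups). The noise filter and the probe set choice changed no call.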
